A study of Homo sapiens with 6 samples.

Results

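Interferon-stimulated genes and genes of MHC class I antigen presentation were examined by bulk RNA sequencing in HEC-1B, an established line of human endometrioid carcinoma. The set was fixed by symbol and holds 46 of the 23284 gene symbols in the files: 31 interferon-stimulated genes and 15 presentation genes. Of these, 42 reached 1 FPKM (a level per kilobase of transcript, scaled by the mapped fragments) in 2 or more libraries and were kept among 12135 kept genes, 28 interferon-stimulated and 14 for presentation. The series asks how expression differs with and without an accelerated passage of sorted cells from a low to a high state of ALDH1A1, the aldehyde dehydrogenase used as a stem-like cell marker. There were 2 libraries in each of 3 groups. The high-potential accelerated group was made from HEC-1B cells that the labels describe by a high potential for ALDH and as ALDH-high accelerated. The parental accelerated group was made from HEC-1B cells without the potential label, also ALDH-high accelerated, and the parental high-to-low group from such cells labelled as passing from ALDH-high to low. No treatment is named for any group, and no source used here states how the high-potential cells were derived or whether the replicates were separate cultures. The p-values therefore rest on the spread between libraries, and that spread may be technical.

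Interferons bind paired receptors whose kinases activate STAT factors, and these, with IRF9, switch on genes carrying an interferon-stimulated response element (ISRE), or, for interferon gamma, a gamma-activated site (GAS). The products include sensors of viral RNA, enzymes that degrade it, membrane proteins that hold viruses back, and brakes on the pathway itself. The same signal raises MHC class I presentation, in which an immunoproteasome cuts proteins, the TAP transporter moves the peptides into the endoplasmic reticulum, and a class I heavy chain paired with B2M carries them to the surface. Tumour cells of epithelial origin can run this programme at a basal level without added interferon.

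The libraries were of like depth: 1 fragment corresponded to 0.0921 to 0.124 FPKM on a 1 kilobase transcript, and 11392 to 11726 genes reached 1 FPKM. ALDH1A1, the marker named in the sort, had 352.5 and 303.6 FPKM in high-potential accelerated libraries. It was 26.7 and 316.9 FPKM in the parental accelerated libraries, against 28.4 and 9.44 FPKM in the parental high-to-low libraries. The library labelled parental accelerated replicate 1 thus lay inside the high-to-low range for ALDH1A1 and replicate 2 did not. Epithelial keratins were abundant (KRT18 at 291 to 464 FPKM), while CDH1, the epithelial cadherin, was at most 0.087 FPKM. Markers of leukocytes, endothelium and fibroblasts, 18 genes in all, stayed at or below 0.92 FPKM in every library. In bulk RNA, fewer cells expressing a gene and less RNA per cell cannot be told apart.

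No member passed a limma adjusted p of 0.05 in any of the 3 comparisons, where 0.494% of kept genes passed between high-potential accelerated and parental accelerated, 0.799% between high-potential accelerated and parental high-to-low, and 0.0165% between parental accelerated and parental high-to-low. Against parental high-to-low, the interferon-stimulated genes of high-potential accelerated cells had the lower mean in 25 of 28 cases (50.8% of all kept genes), with a median log2 difference of -0.42 (all kept genes -0.01). The filter bears on that count, since DDX60, OASL and IFI44 passed it only through parental libraries, while UBE2L6 and IFI27, higher in high-potential libraries, did not pass. With no filter, 26 of 31 were lower (46.7% of 17184 genes), with a median of -0.33. Of the 28 kept, the libraries did not overlap in 13 cases lower and 2 higher, where 26.4% and 24.7% of kept genes did so. At an unadjusted p under 0.05, 8 of the 28 were lower and 1 higher, beside 10.8% and 7.57% of kept genes. The filter bears on these counts too. DDX60, OASL and IFI44 were among the 13, and DDX60 and OASL among the 8, whereas UBE2L6 and IFI27, higher without overlap, were not counted. The presentation genes of the same comparison were split, 9 lower and 5 higher with a median of -0.10 and none at an unadjusted p under 0.05. Of the 14 presentation genes, 3 stood lower without overlap and 1 higher, no more often than the 26.4% and 24.7% of kept genes.

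Against parental accelerated cells, high-potential accelerated cells had 17 of 28 interferon-stimulated genes lower (median -0.23; 49.6% of kept genes lower) and 9 of 14 presentation genes higher (median 0.23; all kept genes 0.00498). Without overlap stood 8 interferon-stimulated genes lower and 4 higher, and 3 presentation genes higher and none lower, where 22.3% of kept genes were lower and 21.1% higher in this way. The 8 include DDX60 and OASL, kept only through parental libraries. Not kept were UBE2L6 and IFI27, higher without overlap, and OAS2, lower without overlap. The limma test gave an unadjusted p under 0.05 for 4 interferon-stimulated genes lower and 2 higher and for no presentation gene (8.63% and 5.69% of kept genes). Parental accelerated cells, in turn, had 25 of 28 interferon-stimulated genes lower than parental high-to-low cells (median -0.34) and 13 of 14 presentation genes lower (median -0.38), where 52.9% of kept genes were lower and their median was -0.02. No member of that comparison had an unadjusted p under 0.05 (0.544% of kept genes lower and 0.429% higher), and 13 members stood lower without overlap against 1 higher (12.7% and 11.4% of kept genes). The 3 comparisons share libraries, so their values are given side by side and not as independent findings. High-potential accelerated and parental high-to-low cells differ in the potential label and in the transition label together, and these cannot be told apart in that comparison. When each library was left out in turn, its medians ran from -0.60 to -0.30 for the interferon-stimulated genes and from -0.24 to 0.021 for the presentation genes, so the second had no steady sign.

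**Figure D1:**
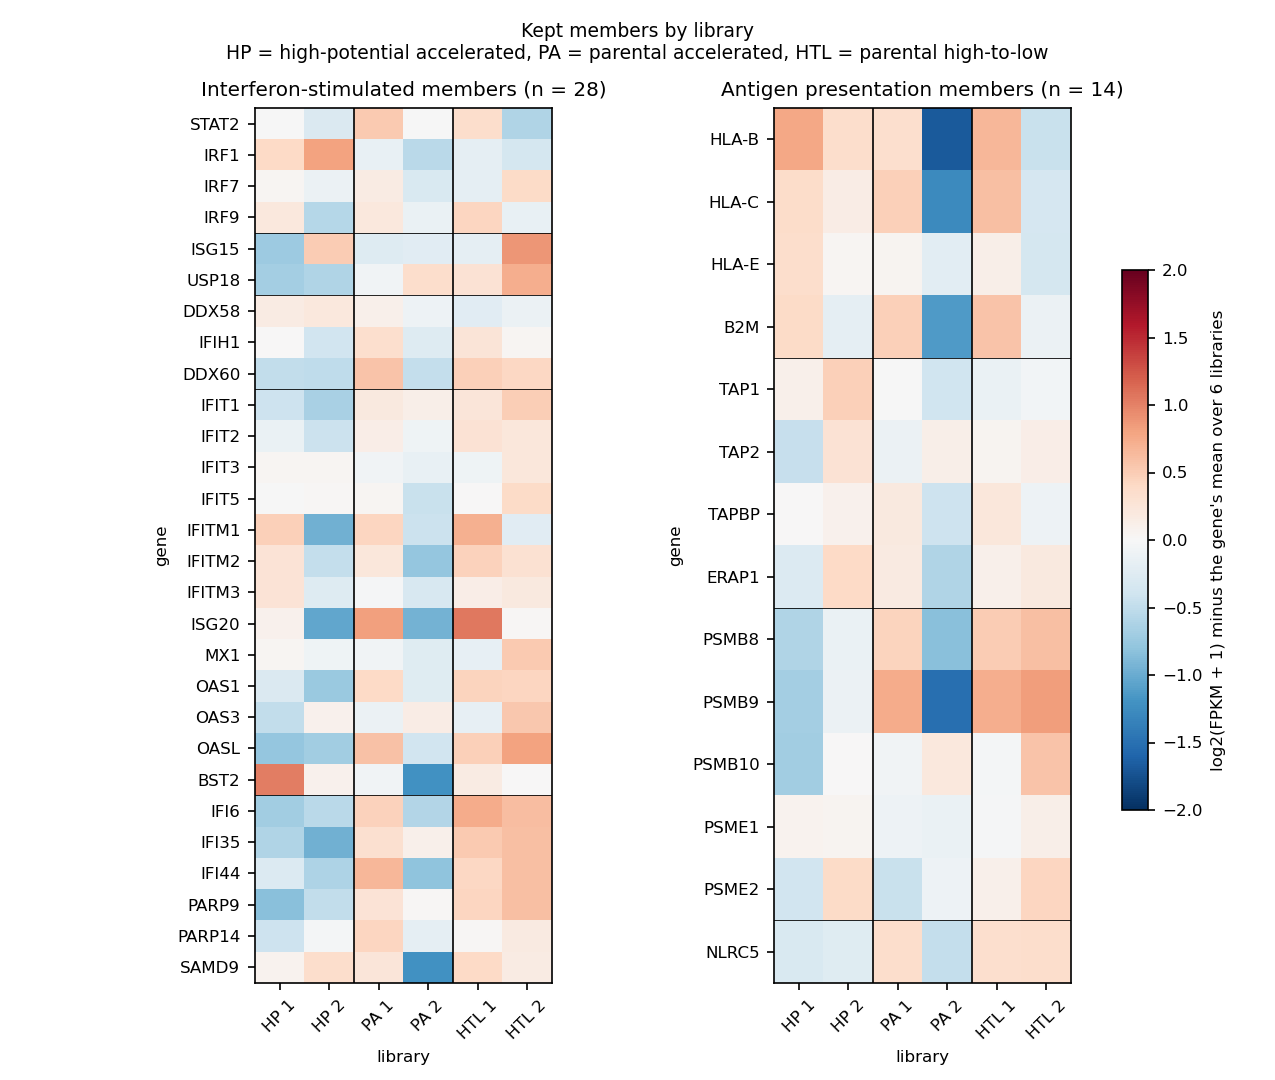
Each row is a kept gene and each column a library, and colour gives log2(FPKM + 1) minus the gene's mean over the 6 libraries (red higher, blue lower; HP, high-potential accelerated; PA, parental accelerated; HTL, parental high-to-low). PA replicate 2 is blue for HLA-B, HLA-C, B2M, PSMB9 and SAMD9, and both HP libraries are blue for IFI6, IFI35, PARP9 and OASL.

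Among the signalling factors, IRF1, a transcription factor of both interferon types and of class I genes, was 12.7 and 17.04 FPKM in high-potential accelerated, 8.41 and 6.15 FPKM in parental accelerated and 8.17 and 7.15 FPKM in parental high-to-low libraries. Both high-potential libraries lay above the other 4. The log2 difference was 0.94 (SE 0.247, adjusted p = 0.177 by limma) against parental accelerated and 0.86 (limma adjusted p = 0.152) against parental high-to-low, so it did not pass. STAT2 and IRF9, partners in the complex that binds the ISRE, ranged over the 6 libraries from 11.3 to 25.8 FPKM and from 4.83 to 10.7 FPKM, with overlap in each comparison. IRF7, the factor that amplifies type I interferon, stayed between 1.07 and 2.33 FPKM.

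In the ISG15 system, the ubiquitin-like modifier ISG15 was 12.9 and 31.5 FPKM in high-potential accelerated, 18.1 and 18.6 FPKM in parental accelerated and 19.2 and 41.2 FPKM in parental high-to-low libraries. USP18, which removes ISG15 and damps the type I receptor, was 3.38 and 3.64 FPKM in high-potential accelerated, 5.72 and 7.99 FPKM in parental accelerated and 7.60 and 10.6 FPKM in parental high-to-low libraries. The high-potential values of USP18 lay below the other 4, with a log2 difference of -1.15 from parental high-to-low (limma adjusted p = 0.102). UBE2L6, the conjugating enzyme for ISG15, was under the filter, at 0.518 and 0.214 FPKM in the high-potential libraries and at 0 in the other 4.

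The RNA sensors did not share 1 pattern. DDX58, which encodes RIG-I, was 7.31 and 7.61 FPKM in high-potential accelerated, 6.98 and 5.93 FPKM in parental accelerated and 5.34 and 5.86 FPKM in parental high-to-low libraries, so its groups did not overlap, but by small steps. DDX60, a helicase linked to RIG-I signalling, was 0.651 and 0.634 FPKM in high-potential accelerated, 2.43 and 0.665 FPKM in parental accelerated and 2.22 and 2.09 FPKM in parental high-to-low libraries. For DDX60 the high-potential libraries and parental accelerated replicate 2 were low and the other 3 high. IFIH1, the sensor MDA5, ranged from 1.93 to 3.83 FPKM.

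Of the 13 kept antiviral effectors, 12 had the lower mean in high-potential accelerated than in parental high-to-low cells (median log2 difference -0.49), and 5 of them did not overlap (26.4% of kept genes lower without overlap): IFIT1, IFIT2, IFITM2, OAS1 and OASL. Of these, OASL was kept only through parental libraries. OASL, an oligoadenylate synthetase-like protein that enhances RIG-I signalling, was 0.282 and 0.349 FPKM in high-potential accelerated, 2.28 and 0.682 FPKM in parental accelerated and 2.05 and 2.84 FPKM in parental high-to-low libraries. Both high-potential libraries lay below the other 4, at low levels of at most 0.349 FPKM. The longest coding transcript of OASL has 3266 bases, so 1 fragment is worth less FPKM there than on 1 kilobase. The log2 difference was -1.38 against parental high-to-low (limma adjusted p = 0.131) and -0.84 against parental accelerated (SE 0.364, adjusted p = 0.373 by limma), where adding 1 FPKM before taking log2 shrinks the difference of a gene this low. The second became -1.32 without parental accelerated replicate 2 and -0.35 without replicate 1. OAS1, which makes the oligoadenylates that activate RNase L, was 6.85 and 4.74 FPKM in high-potential accelerated, 11.6 and 7.10 FPKM in parental accelerated and 12.1 and 11.9 FPKM in parental high-to-low libraries. IFIT1, which binds viral RNA lacking a host-type cap, was 7.37 and 6.14 FPKM in high-potential accelerated, 11.8 and 11.1 FPKM in parental accelerated and 12.1 and 14.6 FPKM in parental high-to-low libraries. For IFIT1 and OAS1 alike, the high-potential libraries lay below the other 4. The IFIT1 relatives IFIT2, IFIT3 and IFIT5 lay between 2.26 and 7.23 FPKM, OAS3 between 12.2 and 26.0 FPKM and the GTPase MX1 between 0.773 and 2.02 FPKM.

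BST2, or tetherin, which holds budding virus at the membrane, ran the other way in high-potential cells. It was 8.83 and 4.16 FPKM in high-potential accelerated, 3.61 and 1.09 FPKM in parental accelerated and 4.40 and 3.86 FPKM in parental high-to-low libraries. The high-potential libraries lay above both parental accelerated libraries, by 1.20 on the log2 scale (SE 0.463, adjusted p = 0.318 by limma), and overlapped the high-to-low range. That difference was 0.63 without parental accelerated replicate 2 and 0.73 without high-potential replicate 1. ISG20, an RNA exonuclease, was 7.05 and 2.71 FPKM in high-potential accelerated, 12.4 and 2.94 FPKM in parental accelerated and 14.8 and 6.76 FPKM in parental high-to-low libraries. In each group its replicate 2 was the lower library, as for 10 of 28 interferon-stimulated genes and 24.5% of kept genes. IFITM2, a membrane protein that blocks viral entry, was 55.5 and 32.4 FPKM in high-potential accelerated, 53.4 and 26.2 FPKM in parental accelerated and 63.1 and 56.8 FPKM in parental high-to-low libraries. IFITM1 and IFITM3 were the most abundant of the interferon-stimulated genes, at 87.2 to 280 FPKM and 263 to 397 FPKM. Reads can be shared among the 3 IFITM genes: 42.3% of the 50-base windows of the IFITM1 transcript occur in a relative, 11.5% for IFITM2 and 17.9% for IFITM3, so their separate values are uncertain.

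The remaining kept interferon-stimulated genes, 6 in number, all had the lower mean in high-potential accelerated than in parental high-to-low cells (median log2 difference -1.07), and 5 of the 6 did not overlap, beside the 26.4% of kept genes given above. The filter bears on this: IFI44, among the 5, was kept only through parental libraries, and IFI27, not kept, was higher in high-potential libraries without overlap. IFI35, which binds the interferon-induced protein NMI, was 24.5 and 18.9 FPKM in high-potential accelerated, 47.3 and 40.5 FPKM in parental accelerated and 54.8 and 57.3 FPKM in parental high-to-low libraries. Its 3 groups did not overlap, in that order. The log2 difference was -1.34 against parental high-to-low (SE 0.203, adjusted p = 0.0553 by limma) and -0.99 against parental accelerated (SE 0.203, adjusted p = 0.116 by limma), the lowest adjusted p of any member in each comparison. PARP9, an ADP-ribosyltransferase that acts with the ubiquitin ligase DTX3L, was 4.30 and 5.72 FPKM in high-potential accelerated, 10.5 and 8.67 FPKM in parental accelerated and 11.8 and 13.4 FPKM in parental high-to-low libraries. PARP9 too had 3 groups without overlap, with log2 differences of -1.18 from parental high-to-low (limma adjusted p = 0.0802) and -0.82 from parental accelerated (SE 0.226, adjusted p = 0.187 by limma). IFI6, a small membrane protein that protects cells from death and from flaviviruses, was 14.3 and 16.0 FPKM in high-potential accelerated, 33.3 and 15.6 FPKM in parental accelerated and 40.4 and 37.1 FPKM in parental high-to-low libraries. For IFI6, parental accelerated replicate 2 lay with the high-potential libraries and replicate 1 near the high-to-low libraries. Its log2 difference between high-potential accelerated and parental high-to-low was -1.30 (SE 0.345, adjusted p = 0.132 by limma).

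IFI44 was 0.838 and 0.445 FPKM in high-potential accelerated, 2.51 and 0.263 FPKM in parental accelerated and 1.95 and 2.37 FPKM in parental high-to-low libraries. SAMD9, a restriction factor for poxviruses, was 2.94 and 3.78 FPKM in high-potential accelerated, 3.45 and 0.631 FPKM in parental accelerated and 3.93 and 3.202 FPKM in parental high-to-low libraries. In SAMD9 a single library, parental accelerated replicate 2, stood apart, whereas in IFI44 it was low together with the high-potential libraries. PARP14, an ADP-ribosyltransferase, ranged from 6.26 to 11.9 FPKM. OAS2 (at most 0.305 FPKM) and IFI27 (0.826 and 1.54 FPKM in high-potential libraries, at most 0.225 FPKM in the other 4) were under the filter.

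**Figure D2:**
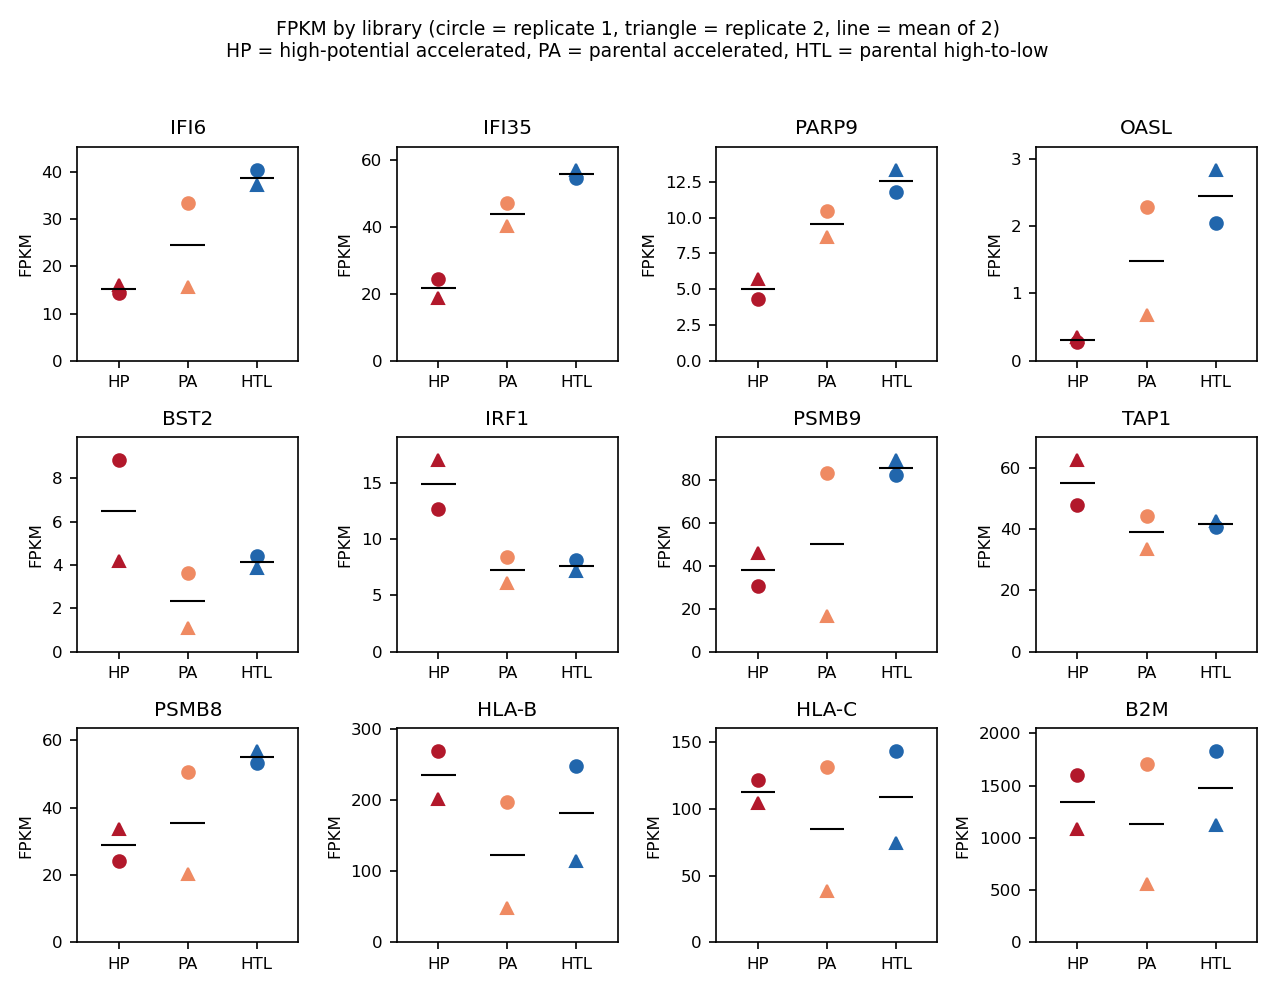
FPKM of 12 genes in each library, by group (circle, replicate 1; triangle, replicate 2; line, mean of 2; axes start at 0; HP, high-potential accelerated; PA, parental accelerated; HTL, parental high-to-low). The HP libraries lie lowest for IFI35, PARP9 and OASL and highest for IRF1 and TAP1, and the PA libraries lie far apart for PSMB9, HLA-B, HLA-C and B2M.

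The promoters of the genes named most are printed because the interferon-stimulated members and the presentation members did not share 1 pattern across the groups, although ISRE letters are common to both. RefSeq windows from 250 bases before to 50 after the start of each gene (GRCh38.p14; the files use hg19) were found for 38 of the 46 genes, with DDX58 listed there as RIGI. The others are IRF7, USP18, IFIT2, IFITM2, OAS2, OASL, HLA-E and NLRC5. The ISRE was searched as GAAA, then any 2 bases, then GAAA, and the GAS as TTC, then any 3 bases, then GAA, on both strands, with overlapping matches counted separately. A gene with more than 1 window was counted once, as holding a match if any of its windows did. ISRE letters occurred for 18 of 25 interferon-stimulated genes (72%), for 10 of 13 presentation genes (76.9%) and for 4.38% of all 27305 genes with a window. GAS letters occurred for 10 of 25 (40%), for 2 of 13 (15.4%) and for 9.38% of all genes with a window. A match is only a match of letters. IFI6 and IFI35 were both low in high-potential libraries, and their windows, 5′ to 3′ on the gene's strand with motif letters in capitals, hold 3 ISRE matches at chr1:27672143-27672442 (minus strand) and 1 GAS match at chr17:43006534-43006833 (plus strand).
IFI6: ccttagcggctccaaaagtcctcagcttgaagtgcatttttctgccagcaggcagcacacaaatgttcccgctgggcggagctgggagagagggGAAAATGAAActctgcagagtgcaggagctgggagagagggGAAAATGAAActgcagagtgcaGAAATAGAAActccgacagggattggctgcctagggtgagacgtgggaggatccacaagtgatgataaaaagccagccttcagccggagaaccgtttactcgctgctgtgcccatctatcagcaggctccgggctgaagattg
IFI35: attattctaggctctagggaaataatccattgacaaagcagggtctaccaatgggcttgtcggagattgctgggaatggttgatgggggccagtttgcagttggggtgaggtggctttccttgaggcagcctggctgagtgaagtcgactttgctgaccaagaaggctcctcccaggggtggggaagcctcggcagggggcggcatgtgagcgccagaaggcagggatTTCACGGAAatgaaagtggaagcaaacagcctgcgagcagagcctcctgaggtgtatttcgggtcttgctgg

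Among the class I chains, HLA-B, a classical heavy chain, was 268.8 and 201.0 FPKM in high-potential accelerated, 198.1 and 48.5 FPKM in parental accelerated and 247.9 and 114.7 FPKM in parental high-to-low libraries. Parental accelerated replicate 2 was the lowest library. The high-potential libraries lay above both parental accelerated ones, with high-potential replicate 2 (201.0 FPKM) only just above parental accelerated replicate 1 (198.1 FPKM). The log2 difference between high-potential and parental accelerated was 1.23 (SE 0.678, adjusted p = 0.479 by limma), and 0.23 without parental accelerated replicate 2 and 2.24 without replicate 1. HLA-C, also a classical heavy chain, was 121.5 and 104.3 FPKM in high-potential accelerated, 131.4 and 38.2 FPKM in parental accelerated and 143.1 and 74.2 FPKM in parental high-to-low libraries. B2M, the invariant light chain, was 1599.8 and 1088.7 FPKM in high-potential accelerated, 1710.3 and 561.1 FPKM in parental accelerated and 1830.9 and 1127.8 FPKM in parental high-to-low libraries. For HLA-B, HLA-C and B2M, replicate 2 was the lower library in every group, and parental accelerated replicate 2 was the lowest of all 6. Replicate 2 was the lower in every group for 4 of 14 presentation genes and for 24.5% of kept genes, a similar share. HLA-E, a ligand of natural killer cell receptors, lay between 34.3 and 56.7 FPKM, and HLA-F was listed at 0 in all 6 libraries, which may be a failed estimate. Of the 50-base windows of these transcripts, 2.54% (HLA-B), 6.71% (HLA-C) and 4.66% (HLA-E) occur in a relative, so reads may be divided between them.

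Peptide transport and loading genes varied less. TAP1, a subunit of the peptide transporter, was 47.8 and 62.4 FPKM in high-potential accelerated, 44.4 and 33.4 FPKM in parental accelerated and 40.7 and 42.8 FPKM in parental high-to-low libraries. Both high-potential libraries lay above the other 4, with log2 differences of 0.49 from parental accelerated (SE 0.226, adjusted p = 0.394 by limma) and 0.38 from parental high-to-low. The first was 0.29 without parental accelerated replicate 2 and 0.31 without high-potential replicate 2. Its partner TAP2 lay between 1.78 and 3.68 FPKM, the loading chaperone TAPBP between 89.6 and 140.2 FPKM and the peptide-trimming enzyme ERAP1 between 2.32 and 5.65 FPKM, with overlap in each comparison.

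The immunoproteasome subunits PSMB9 and PSMB8, unlike TAP1, were lower in high-potential accelerated than in parental high-to-low libraries without overlap. They are among 3 of 14 presentation genes lower in this way, with 1 higher, beside 26.4% and 24.7% of kept genes. Against parental accelerated libraries PSMB9 and PSMB8 overlapped. PSMB9, a catalytic subunit, was 30.6 and 45.7 FPKM in high-potential accelerated, 83.2 and 16.8 FPKM in parental accelerated and 82.3 and 89.1 FPKM in parental high-to-low libraries. The high-potential libraries and parental accelerated replicate 2 were low and the other 3 lay within a narrow range. The log2 difference from parental high-to-low was -1.17 for high-potential accelerated (SE 0.673, adjusted p = 0.413 by limma) and -1.16 for parental accelerated (SE 0.673, adjusted p = 1 by limma). Against parental accelerated cells, high-potential cells differed by -0.0089 for PSMB9 and -0.17 for PSMB8, which became -1.13 and -0.81 without parental accelerated replicate 2 and 1.11 and 0.47 without replicate 1. PSMB8, a second catalytic subunit, was 24.1 and 33.6 FPKM in high-potential accelerated, 50.6 and 20.3 FPKM in parental accelerated and 53.1 and 56.7 FPKM in parental high-to-low libraries. PSMB10, the third, was 11.2 and 18.9 FPKM in high-potential accelerated, 17.8 and 21.9 FPKM in parental accelerated and 18.2 and 28.3 FPKM in parental high-to-low libraries. The same 3 libraries were low for PSMB8 as for PSMB9, with a log2 difference of -0.92 between high-potential accelerated and parental high-to-low (limma adjusted p = 0.312), while PSMB10 was not low in parental accelerated replicate 2 and overlapped. The proteasome activator subunits differed little in PSME1 (261.0 to 310.5 FPKM) and more in PSME2 (52.7 to 98.0 FPKM). NLRC5, the transactivator of class I genes, was 0.990 and 1.09 FPKM in high-potential accelerated, 2.14 and 0.767 FPKM in parental accelerated and 2.12 and 2.16 FPKM in parental high-to-low libraries, the same low and high libraries as PSMB9.

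Each induced subunit replaces a constitutive one in the proteasome, so the FPKM of PSMB9 was set as a percent of that of PSMB6. It was 10.4% and 11.0% in high-potential accelerated, 23.8% and 3.59% in parental accelerated and 20.5% and 14.5% in parental high-to-low libraries. PSMB8 as a percent of PSMB5 was 10.7% and 11.3% in high-potential accelerated, 26.2% and 6.99% in parental accelerated and 25.5% and 16.4% in parental high-to-low libraries. PSMB10 as a percent of PSMB7 was 5.54% and 5.78% in high-potential accelerated, 8.64% and 6.05% in parental accelerated and 7.86% and 8.06% in parental high-to-low libraries. In each of the 3 ratios the high-potential libraries agreed closely with each other and lay below both high-to-low libraries. The constitutive genes PSMB5, PSMB6 and PSMB7 were higher in replicate 2 than in replicate 1 of every group, so the ratios do not follow the induced subunits alone. PSMB6 was 293.9 and 414.8 FPKM in high-potential accelerated and 402.6 and 613.9 FPKM in parental high-to-low libraries. Parental accelerated replicate 1 had the highest value of the 6 libraries in each ratio, and replicate 2 had the lowest for PSMB9 and PSMB8. With 2 libraries against 2, an exact permutation test of 1 such value cannot give a two-sided p below 0.333.

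**Figure D3:**
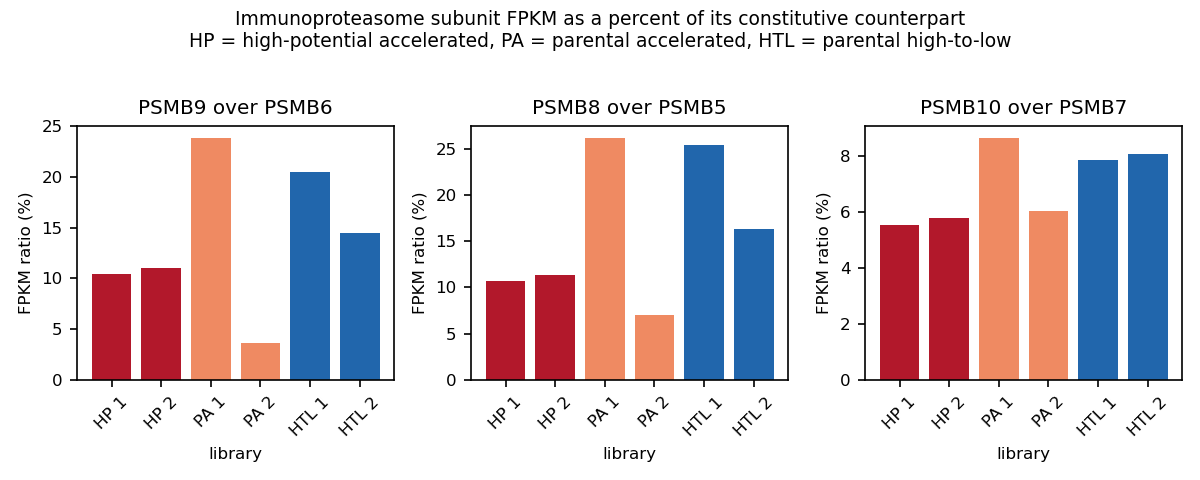
Bars give the FPKM of an induced proteasome subunit as a percent of its constitutive counterpart in each library (HP, high-potential accelerated; PA, parental accelerated; HTL, parental high-to-low; axes start at 0 and differ between panels). PSMB9 over PSMB6 is 10.4% and 11.0% in HP, 23.8% and 3.59% in PA and 20.5% and 14.5% in HTL.

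PSMB9 and TAP1 are transcribed away from each other, with starts 488 bases apart, so their windows share 13 bases, and their values differed in which libraries were low: PSMB9 was low in the high-potential libraries and TAP1 was not. The windows of these genes and of B2M and HLA-B are printed for that reason, with ISRE letters in capitals. Overlapping pairs of ISRE matches lie in TAP1 (chr6:32853655-32853954, minus strand) and B2M (chr15:44711267-44711566, plus strand). No match of either motif lies in these letters of PSMB9 (chr6:32853942-32854241, plus strand) or HLA-B (chr6:31357130-31357429, minus strand). The TAP1 pair lies between the 2 starts, beyond the 250 bases searched before the PSMB9 start, so it could not be counted for PSMB9. TAP1 has 2 windows, and the one nearer PSMB9 is printed. The other holds no ISRE match and 1 GAS match. Any link between these motifs and the values was not tested. The kit does not record the strand, and 12.1% of the 50-base windows of the PSMB9 transcript also occur in PSMB8-AS1, so fragments of overlapping genes there cannot be separated.
TAP1: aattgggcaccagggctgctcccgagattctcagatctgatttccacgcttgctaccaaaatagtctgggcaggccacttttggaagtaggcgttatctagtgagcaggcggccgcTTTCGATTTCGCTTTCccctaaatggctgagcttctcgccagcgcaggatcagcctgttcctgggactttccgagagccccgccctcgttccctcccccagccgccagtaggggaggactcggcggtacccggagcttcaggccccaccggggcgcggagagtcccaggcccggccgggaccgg
PSMB9: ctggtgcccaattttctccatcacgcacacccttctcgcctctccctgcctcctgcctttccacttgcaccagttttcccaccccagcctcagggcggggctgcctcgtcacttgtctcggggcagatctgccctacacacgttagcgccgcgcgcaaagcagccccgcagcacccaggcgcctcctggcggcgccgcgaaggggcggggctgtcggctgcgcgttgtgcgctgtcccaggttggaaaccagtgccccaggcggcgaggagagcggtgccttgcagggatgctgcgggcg
B2M: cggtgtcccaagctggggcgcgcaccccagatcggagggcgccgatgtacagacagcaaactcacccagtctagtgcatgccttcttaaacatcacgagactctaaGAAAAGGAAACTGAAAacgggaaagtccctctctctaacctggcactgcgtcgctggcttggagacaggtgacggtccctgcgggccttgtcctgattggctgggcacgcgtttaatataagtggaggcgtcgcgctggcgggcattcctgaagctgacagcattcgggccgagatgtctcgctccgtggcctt
HLA-B: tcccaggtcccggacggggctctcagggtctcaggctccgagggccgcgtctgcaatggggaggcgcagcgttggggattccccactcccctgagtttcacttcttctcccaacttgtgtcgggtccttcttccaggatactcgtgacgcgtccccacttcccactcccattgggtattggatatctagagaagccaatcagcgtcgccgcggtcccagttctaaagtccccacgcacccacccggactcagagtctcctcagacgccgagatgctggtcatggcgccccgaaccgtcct

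How much of the parental comparison rested on parental accelerated replicate 2 was read first from the order of the libraries. That library held the lowest of the 6 values for 10 of 14 presentation genes and 10 of 28 interferon-stimulated genes, where it did so for 16.6% of kept genes. Parental accelerated replicate 1 was lowest for 1 presentation gene and no interferon-stimulated gene (16.2% of kept genes). The high-potential libraries were lowest for 7 (replicate 1) and 9 (replicate 2) interferon-stimulated genes and for 2 and 0 presentation genes (17.3% and 21.7% of kept genes). The high-to-low libraries were each lowest for 1 interferon-stimulated gene and for 0 and 1 presentation genes (10.8% and 17.3%). The low values of the interferon-stimulated genes were therefore spread over 3 libraries, and those of the presentation genes gathered in 1.

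**Figure D4:**
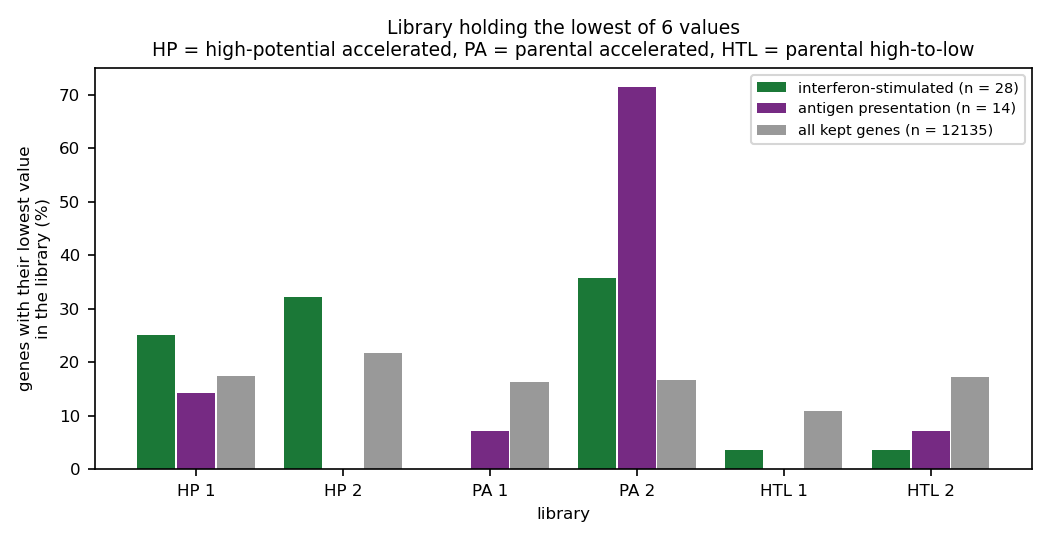
Bars give, for each library, the percent of genes with their lowest of 6 values there, for 28 interferon-stimulated genes, 14 presentation genes and 12135 kept genes (HP, high-potential accelerated; PA, parental accelerated; HTL, parental high-to-low). PA replicate 2 holds 10 of the 14 presentation genes, and HP replicates 1 and 2 and PA replicate 2 together hold 26 of the 28 interferon-stimulated genes.

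Within the parental accelerated group, replicate 2 was below replicate 1 in 25 of 28 interferon-stimulated genes (median log2 difference, replicate 2 minus replicate 1, -0.47) and in 11 of 14 presentation genes (-0.70), where 49.8% of kept genes were. In the high-potential accelerated group it was below in 17 and 5 (50.2% of kept genes), and in the parental high-to-low group in 13 and 5 (49.9%). The value of parental accelerated replicate 1 was 9.53 times that of replicate 2 for IFI44, 5.47 times for SAMD9, 4.96 times for PSMB9, 4.22 times for ISG20 and 4.08 times for HLA-B. It was 3.44 times for HLA-C, 3.30 times for BST2 and 3.05 times for B2M.

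Without parental accelerated replicate 2, the parental comparison lost most of its shift. The library then left in that group is replicate 1, whose ALDH1A1 of 26.7 FPKM lay inside the high-to-low range despite its label, and the one left out is the one with 316.9 FPKM. The median log2 difference between parental accelerated and parental high-to-low became -0.09 for the interferon-stimulated genes, with 17 lower and 11 higher, and 0.02 for the presentation genes, with 6 lower and 8 higher. PSMB9 became -0.04, against -1.16 with both libraries, SAMD9 -0.03 against -0.76, and IFI6 -0.21 against -0.74. HLA-B changed sign, to 0.23 from -0.77 with both libraries, B2M to 0.25 from -0.55, HLA-C to 0.35 from -0.53, ISG20 to 0.28 from -0.61 and IFI44 to 0.15 from -0.58. Some of these also turned on high-to-low replicate 1, without which HLA-B was -0.22, HLA-C -0.062, B2M -0.20 and ISG20 -0.094. Without parental accelerated replicate 1 instead, the medians were -0.47 and -0.61, and 7 interferon-stimulated and 6 presentation genes had an unadjusted p under 0.05, where 6.66% of kept genes did, none with a limma adjusted p below 0.288. Leaving out either library leaves 1 in the parental accelerated group, which the fit assumes to vary like the libraries of the other groups. Parental accelerated replicate 2 also bore on the comparison of the accelerated groups. Without it the medians of high-potential accelerated minus parental accelerated were -0.47 for interferon-stimulated and -0.14 for presentation genes, and without replicate 1 they were 0.10 and 0.46. The comparison of high-potential accelerated with parental high-to-low cells does not use the parental accelerated libraries except in the shared spread.

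**Figure D5:**
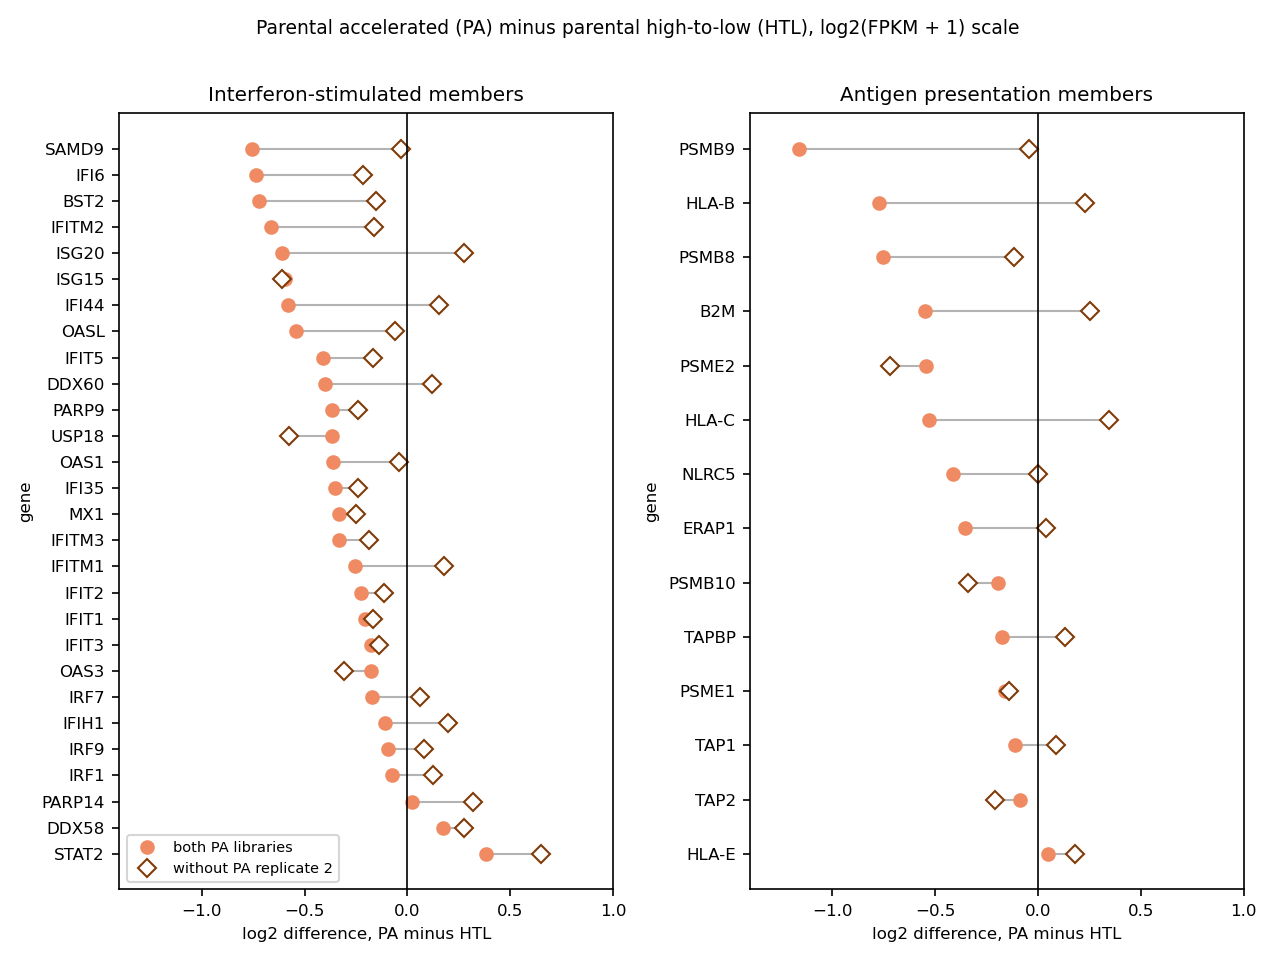
Log2 difference of parental accelerated (PA) minus parental high-to-low (HTL) for each kept gene, on the log2(FPKM + 1) scale, with both PA libraries (filled circle) and without PA replicate 2 (open diamond); the vertical line is at 0. Most diamonds lie to the right of their circles, as for PSMB9 (-0.04 against -1.16) and SAMD9 (-0.03 against -0.76).

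The sample descriptions carry number codes that begin with 17 in the first replicate of each accelerated group and in both high-to-low libraries, and with 18 in the second replicate of each accelerated group; no source used here says what they stand for. Within code 17, high-potential minus parental accelerated gave a median of -0.35 for interferon-stimulated and -0.15 for presentation genes, and within code 18 it gave 0.00459 and 0.60, beside -0.23 and 0.23 over both. High-potential accelerated minus parental high-to-low within code 17 gave -0.30 and -0.24, beside -0.42 and -0.10. Parental accelerated minus parental high-to-low within code 17 is the comparison without parental accelerated replicate 2, given above. No high-to-low library has code 18, so for that code this difference has no value. In a fit over all libraries with the code as a term, the medians for interferon-stimulated genes were -0.20 for high-potential accelerated against high-to-low and -0.13 for parental accelerated against high-to-low, nearer to 0 than without the term. For presentation genes these medians were -0.011 and -0.20. The difference between the accelerated groups kept its medians of -0.23 and 0.23, since both groups hold 1 library of each code.

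Other genes of the pathway, from lists that hold no member, also gave no call in any comparison. The interferon genes searched (IFNB1, IFNA1, IFNE, IFNK, IFNG, IL29, IL28A and IL28B) were at most 0.298 FPKM in every library, and none was kept. All 9 receptor and kinase genes were kept, and 9 of 9 had the higher mean in high-potential accelerated than in parental high-to-low cells (median 0.36, where 50.8% of kept genes had the lower mean), 7 without overlap (24.7% of kept genes). IFNGR1, the ligand-binding chain of the interferon gamma receptor, was 52.6 and 45.02 FPKM in high-potential accelerated, 30.6 and 27.3 FPKM in parental accelerated and 31.2 and 28.9 FPKM in parental high-to-low libraries. The high-potential libraries stood above the other 4, and the log2 difference from parental high-to-low was 0.68 (SE 0.184, adjusted p = 0.137 by limma). IFNAR2, a chain of the type I receptor, was 39.6 and 30.7 FPKM in high-potential accelerated, 16.4 and 25.1 FPKM in parental accelerated and 18.01 and 22.7 FPKM in parental high-to-low libraries, a log2 difference of 0.75 from parental high-to-low (limma adjusted p = 0.223).

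Of 10 sensing and feedback genes 9 were kept, 7 lower and 2 higher in high-potential accelerated than in parental high-to-low cells. TMEM173, the adaptor STING of DNA sensing, was 1.53 and 0.802 FPKM in high-potential accelerated, 4.27 and 4.62 FPKM in parental accelerated and 3.44 and 6.82 FPKM in parental high-to-low libraries. Its high-potential libraries lay below the other 4, and the log2 difference from parental high-to-low was -1.47 (SE 0.34, adjusted p = 0.106 by limma). The feedback inhibitor SOCS1 was 4.60 and 2.24 FPKM in high-potential accelerated, 2.33 and 1.19 FPKM in parental accelerated and 1.51 and 0.964 FPKM in parental high-to-low libraries. Of 32 other interferon-stimulated genes 17 were kept, 10 lower and 7 higher, a median of -0.10 in the same comparison. Among them DTX3L, the partner of PARP9, was 3.28 and 5.11 FPKM in high-potential accelerated, 9.65 and 6.24 FPKM in parental accelerated and 8.13 and 11.5 FPKM in parental high-to-low libraries. It too had its high-potential libraries below the other 4, with a log2 difference of -1.07 from parental high-to-low (limma adjusted p = 0.159). Of 11 other presentation genes 10 were kept, 6 lower and 4 higher, a median of -0.10.

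Of 6 class II genes 2 were kept, and they differed in direction. HLA-DMA, a peptide exchange factor of class II, was 3.28 and 2.84 FPKM in high-potential accelerated, 10.5 and 4.59 FPKM in parental accelerated and 13.4 and 7.55 FPKM in parental high-to-low libraries, which put it -1.45 from parental high-to-low on the log2 scale (SE 0.413, adjusted p = 0.149 by limma). CD74, the class II invariant chain, was 69.5 and 42.8 FPKM in high-potential accelerated, 38.8 and 7.93 FPKM in parental accelerated and 47.9 and 13.7 FPKM in parental high-to-low libraries. In CD74, as in B2M, HLA-B and HLA-C, parental accelerated replicate 2 was the lowest library. Replicate 2 was also the lower library of every group, as for 24.5% of kept genes.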

How the data were processed

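Bulk RNA sequencing of HEC-1B cells gave 6 libraries in 3 groups of 2. Per the labels' protocols, the kits were miRNeasy for RNA, SMART-Seq v4 for cDNA and Nextera for libraries. The authors deposited FPKM values per gene symbol. Per the submitters' processing notes, TopHat2 2.0.13, Cuffnorm 2.2.1 and hg19 were used; the sources used here name neither the annotation nor the scaling. No count model suits FPKM, and depth is known only relatively, from the spacing of low values.

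A gene was kept where 2 or more libraries reached 1 FPKM. On log2(FPKM + 1), limma 3.58.1 in R 4.3.3 fitted the 3 groups together, using a variance trend and 3 residual degrees of freedom, and p-values were adjusted by Benjamini and Hochberg over all 12135 kept genes, two-sided at 0.05. The step was tested on simulated data. Members and lists were chosen with earlier results of these data known, so lists are described by counts and medians, without a test of their own. Values in every library are given for the 4 kept genes of each part with the greatest absolute log2 difference in each comparison and between the parental accelerated libraries; other values were picked as examples after they were seen. Pathway genes outside the set are drawn from the 3 of each list with the greatest difference between high-potential accelerated and parental high-to-low cells. The planned comparison of protein sequences was replaced by shared 50-base windows of GENCODE v29 transcripts. In all, 16 alternatives were run.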

Additional observations from a re-analysis of the deposited data

How the results depend on the processing

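Under the 16 alternatives no member was called, except with the replicate numbers as a block. The numbers name replicates and are not stated to pair them; differences between replicates 2 and 1 correlated across genes at 0.187 (high-potential and parental accelerated), 0.158 (high-potential accelerated and high-to-low) and 0.281 (parental accelerated and high-to-low). With the replicate block, 546 genes (4.50%) were called between the accelerated groups, 1 of them a member (IFI35, -0.99), and 944 (7.78%) between high-potential accelerated and high-to-low, 3 of them members (IFI35, -1.34; PARP9, -1.18; USP18, -1.15), with HLA-DMA (-1.45) and, in both comparisons, IFNGR1 (0.73 and 0.68) also called. Between the accelerated groups 60 genes were called, against 31 at a pseudocount of 0.1, 38 with no filter, 15 with 1 FPKM required in all 6 libraries, 39 in a fit of these groups alone, 105 with a term for the label code and 14 to 38 without 1 library. Between high-potential accelerated and high-to-low the 97 calls became 54, 39 and 56 under the first 3 of these, 54 with the code term and 13 to 115 without 1 library. Between the parental groups the 2 calls became 4 at a pseudocount of 0.1, 0 with the strict filter (95 genes at an unadjusted p under 0.05 by limma), 7 in a fit of these groups alone, 7 with the code term and 4 to 7 without 1 library.

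Leaving out each library in turn, medians ranged from -0.47 to 0.10 (interferon-stimulated) and from -0.14 to 0.46 (presentation) between the accelerated groups, and from -0.47 to -0.086 and from -0.61 to 0.021 between the parental groups. Both ends of each range came from leaving out a parental accelerated library. Of the named differences recomputed across the alternatives, 8 changed sign in at least 1 setting. PSMB9 and PSMB8 between the accelerated groups were not among those recomputed in this way, but they changed sign too. Their differences of -0.0089 and -0.17 became 1.11 and 0.47 without parental accelerated replicate 1. Leaving out parental accelerated replicate 2 and then replicate 1 gave, between the accelerated groups, -0.37 and 1.23 for B2M and -0.22 and 1.53 for HLA-C. Between the parental groups it gave 0.25 and -1.36 for B2M, 0.23 and -1.78 for HLA-B, 0.35 and -1.41 for HLA-C, 0.15 and -1.32 for IFI44, 0.28 and -1.49 for ISG20 and 0.00188 and -0.83 for NLRC5. ISG20 was also 0.11 with the code term. In all, 631 of the values recomputed across the alternatives kept direction and side of the threshold and 7 crossed it under the block. The cause of these changes was not tested. There were 2 libraries a group, and 1 fragment was worth about 0.1 FPKM on 1 kilobase. Genes such as OASL and IFI44 thus rest on few fragments in the libraries where they were low.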
